A study of Mus musculus with 6 samples.

Results

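Mmp8, Mmp9, Padi4, Retnlg, Cd177, Anxa1 and Itgam are genes of the late stages of neutrophil maturation, and their signals are described here in each of 6 mice. They were taken by name as 7 of 14860 genes with a single symbol in the array annotation, and all 7 were measured, each by 1 probe set entry. The genes were listed with the contrast between the 2 groups already known, so their differences are given as a description, with no test and no weight as evidence. Of the mice, 3 were NRASD12/BCL-2 double transgenic mice on the FVB/N background treated with ABT-737, an inhibitor that binds the groove of BCL-2, BCL-XL and BCL-W and so disables these guards against apoptosis. They received 75 mg/kg, repeated 3 times in each week, for a total of 33 days. They were set against 3 control mice of the same genotype and background, untreated according to the series description.

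All mice carried both transgenes, a mutant NRAS and BCL-2, and serve as a model of acute myeloid leukaemia. The sources used here do not give the promoters that drive the transgenes, the age of the animals or any vehicle given to the controls. RNA came from spleen cells that were enriched on magnetic beads by their Sca-1, which marks primitive cells of the blood, and was hybridised to 1 exon array per mouse. Values are deposited log2 signals, so a difference of 1 is a doubling. The 14860 genes were fitted together with limma, which gave the standard errors (SE) of the differences.

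Neutrophils build their granules in waves as they mature. Azurophil granules with myeloperoxidase and elastase are filled in promyelocytes, specific granules with lactoferrin in myelocytes, and gelatinase granules in later forms, when surface molecules of the mature cell also appear. Among the 7 genes, Mmp8 and Mmp9 encode granule proteases, Padi4 a nuclear enzyme, Retnlg a secreted peptide, and Cd177, Anxa1 and Itgam proteins of the cell surface or of granules that reach it.

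Array medians ran from 6.86 to 7.14, no 2 arrays held the same values, and having so few arrays limits the precision. Control mouse 3 had a signal of 4.77 for the Y-linked gene Kdm5d, against 8.05 to 9.06 in the other 5 mice. The sex of that mouse may thus differ from that of the others, and the part of sex in the differences was not tested. ABT-737 mouse 1 stood nearer to the controls than ABT-737 mice 2 and 3 did for each of the 7 genes. The Sca-1 gene itself, Ly6a, had no entry with a single symbol and so could not be analysed. Among progenitor genes, Kit, the stem cell factor receptor, had signals of 8.08, 8.46 and 8.12 in ABT-737 mice, against 8.25, 7.83 and 8.46 in controls. The neutrophil genes came with signals of lymphocyte genes in the same RNA, for example Cd79a, part of the B cell receptor, at 12.69 to 13.49 over the 6 mice.

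The promoter stretches of 3 of the genes are shown because the genes were measured together in each mouse yet differ in how far the groups stood apart, with no overlap for Mmp8 and Itgam and overlap for Anxa1. Sequences run 5′ to 3′ on the strand of the gene, from 250 bases before to 50 bases after the start, from RefSeq, build GRCm38.p6. Mmp8 lies on the plus strand at chr9:7558179-7558478, Itgam on the plus strand at chr7:128062390-128062689 and Anxa1 on the minus strand at chr19:20390622-20390921. Capitals mark matches on either strand to GAGGAA, the core bound by PU.1, to TTGCNNAA, a form of the C/EBP motif, and to TATAAA, the TATA box.
Mmp8: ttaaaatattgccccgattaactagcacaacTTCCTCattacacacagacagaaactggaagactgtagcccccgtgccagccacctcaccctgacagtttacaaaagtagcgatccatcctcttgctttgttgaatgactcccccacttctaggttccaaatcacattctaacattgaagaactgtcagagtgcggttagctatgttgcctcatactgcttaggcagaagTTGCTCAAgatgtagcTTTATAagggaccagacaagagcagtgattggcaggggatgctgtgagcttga
Itgam: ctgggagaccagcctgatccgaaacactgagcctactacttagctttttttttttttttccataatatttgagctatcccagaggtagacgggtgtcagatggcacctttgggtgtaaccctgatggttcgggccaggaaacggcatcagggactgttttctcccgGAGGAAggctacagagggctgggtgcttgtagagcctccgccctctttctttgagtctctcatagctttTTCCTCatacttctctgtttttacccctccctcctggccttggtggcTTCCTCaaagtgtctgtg
Anxa1: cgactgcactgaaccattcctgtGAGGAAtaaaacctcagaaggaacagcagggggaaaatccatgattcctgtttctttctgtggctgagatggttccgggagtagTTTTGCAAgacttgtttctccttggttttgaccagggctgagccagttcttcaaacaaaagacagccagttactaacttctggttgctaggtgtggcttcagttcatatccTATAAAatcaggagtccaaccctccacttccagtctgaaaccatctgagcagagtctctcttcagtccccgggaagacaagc
PU.1 and the C/EBP proteins are the main transcription factors of the granulocyte line. Promoters were matched for 6 of the 7 genes, and matches to different motifs did not overlap in them. GAGGAA was found in 4 of the 6 (Mmp8, Cd177, Anxa1 and Itgam), against 28.3% of 32851 promoters of the same length. TTGCNNAA was found in 3 (Mmp8, Retnlg and Anxa1), against 10.8% of all promoters, and TATAAA in 4 (Mmp8, Padi4, Cd177 and Anxa1), against 13.6%. The Itgam stretch held 3 matches to GAGGAA. These matches are letters in a window and show no binding.

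Mean signals of all 7 genes were higher in ABT-737 mice than in controls, by 1.21 to 2.91 log2, which is 2.31-fold to 7.50-fold. The median of the 7 differences was 2.19, and the median over all 14860 genes was -0.02. For 5 of the 7, Mmp8, Mmp9, Padi4, Retnlg and Itgam, every ABT-737 mouse lay above every control, as did 6.14% of all genes. For Cd177 and Anxa1 the groups overlapped. None of the 7 passed an adjusted p of 0.05 by limma (Benjamini-Hochberg, all 14860 genes), and neither did any other gene (0.0%). At an unadjusted p under 0.05 by limma all 7 were counted as higher, as were 5.75% of all genes, and since this contrast chose the genes nothing is read from those counts. In bulk RNA, more cells of a type and more RNA per cell cannot be told apart.

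**Figure D1:**
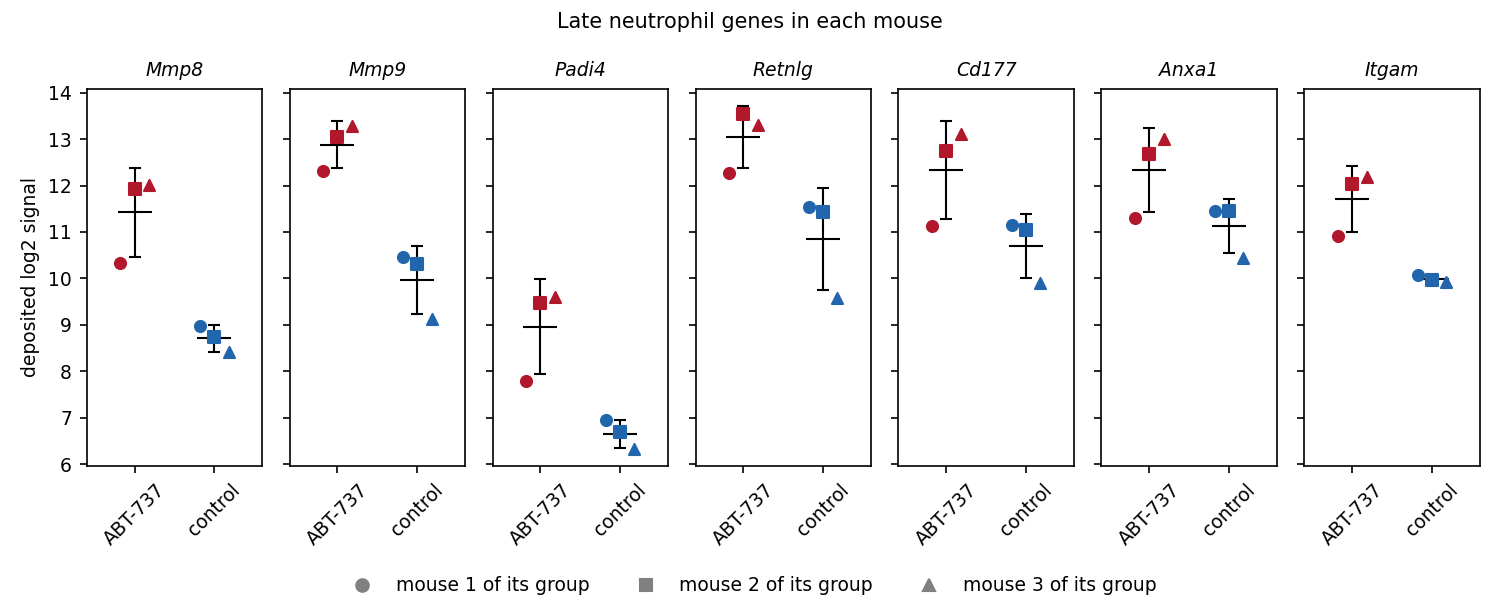
Deposited log2 signal (vertical axis) of each of the 7 genes in the ABT-737 mice (red, left in each panel) and the controls (blue, right), with marker shapes for mouse 1, 2 and 3 of each group and bars for the mean ± SD (n = 3 each). ABT-737 mouse 1 is the lowest of its group and control mouse 3 the lowest of its group in every panel, and the groups overlap for Cd177 and Anxa1.

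The 2 granule proteases showed the largest differences of the 7. Mmp9, the gelatinase that cuts denatured collagen and type IV collagen and gives gelatinase granules their name, had signals of 12.31, 13.04 and 13.28 in the ABT-737 mice, against 10.47, 10.31 and 9.13 in the controls. The lowest ABT-737 mouse thus lay 1.84 above the highest control, the widest gap among the 7 genes. Its mean was 12.88 ± 0.51 in ABT-737 mice and 9.97 ± 0.73 in controls (SD, n = 3 each), a difference of 2.91 (SE 0.39). Mmp8, the neutrophil collagenase of the specific granules, had signals of 10.33, 11.92 and 12.01 in ABT-737 mice, against 8.98, 8.73 and 8.41 in controls. The controls lay close together, while ABT-737 mouse 1 lay between them and the other treated mice. The means were 11.42 ± 0.95 in ABT-737 mice and 8.71 ± 0.29 in controls (SD, n = 3 each), a difference of 2.71 (SE 0.44).

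Padi4 encodes the enzyme that turns arginines of histones into citrulline and takes part in the release of neutrophil extracellular traps. Its signals were 7.78, 9.48 and 9.61 in ABT-737 mice, against 6.94, 6.69 and 6.33 in controls. The groups were separated by 0.84, and the difference was 2.30 (SE 0.47), or 4.94-fold. The spread was wider among the treated mice, with an SD of 1.02, against 0.31 in the controls.

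Retnlg encodes resistin-like gamma, a small secreted peptide made by mouse neutrophils. It had signals of 12.28, 13.55 and 13.30 in ABT-737 mice, against 11.54, 11.44 and 9.58 in controls. Control mouse 3 stood 1.91 below the mean of the other 2 controls, the widest such gap of the 7 genes. The difference of 2.19 (SE 0.56) was 1.55 without that mouse.

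Itgam encodes CD11b, the alpha chain of the integrin Mac-1, which binds complement fragments and ICAM-1. Its signals were 10.91, 12.04 and 12.19 in ABT-737 mice, against 10.08, 9.96 and 9.92 in controls. The controls were the tightest of the 7 genes, at 9.99 ± 0.08, against 11.71 ± 0.70 in ABT-737 mice (SD, n = 3 each). The difference was 1.73 (SE 0.32), and the lowest ABT-737 mouse lay 0.83 above the highest control.

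Cd177 and Anxa1 did not separate the groups. Cd177, a surface protein of neutrophils from the Ly6 and urokinase receptor family, had signals of 11.12, 12.74 and 13.12 in ABT-737 mice, against 11.16, 11.04 and 9.91 in controls. ABT-737 mouse 1 lay between the controls, and the difference was 1.62 (SE 0.55). Anxa1, annexin A1, a calcium-dependent lipid-binding protein that limits neutrophil recruitment, had signals of 11.31, 12.67 and 13.01 in ABT-737 mice, against 11.46, 11.45 and 10.45 in controls. ABT-737 mouse 1 was below 2 of the controls, and the difference of 1.21 (SE 0.47) was the smallest of the 7.

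The mice kept much the same order for every gene. ABT-737 mice 2 and 3 were the highest 2 of the 6 for all 7 genes, and control mouse 3 was the lowest of the 6 for all 7. ABT-737 mouse 1 exceeded the control mean by 0.19 for Anxa1, 0.42 for Cd177, 0.92 for Itgam, 1.13 for Padi4, 1.43 for Retnlg, 1.62 for Mmp8 and 2.34 for Mmp9. In ABT-737 mice 2 and 3 the same excess ran from 1.55 and 1.89 for Anxa1 up to 3.21 for Mmp8 in mouse 2 and 3.31 for Mmp9 in mouse 3. The genes thus differed most from each other in ABT-737 mouse 1, where the excess over controls of Mmp9 was large and that of Anxa1 small. Over the 21 pairs of genes, Pearson correlations across the 6 mice ran from 0.879 to 0.998, values that hold the difference between groups and the shared arrays as well as any variation within groups.

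Leaving out 1 mouse at a time moved the differences but turned none round. Without ABT-737 mouse 1 they ran from 1.72 for Anxa1 to 3.26 for Mmp8, the groups then overlapped for none of the 7, and 6 of the 7, all but Retnlg, passed an adjusted p of 0.05 by limma. In that comparison of 2 mice with 3, 16.2% of all genes were higher with no overlap, and 510 genes (3.43%) passed the adjusted threshold, so nothing is read from the counts of the 7. Control mouse 3, with low Kdm5d, had the opposite weight. Without it the differences were 2.49 for Mmp9, 2.56 for Mmp8, 2.14 for Padi4, 1.69 for Itgam, 1.55 for Retnlg, 1.23 for Cd177 and 0.87 for Anxa1.

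**Figure D2:**
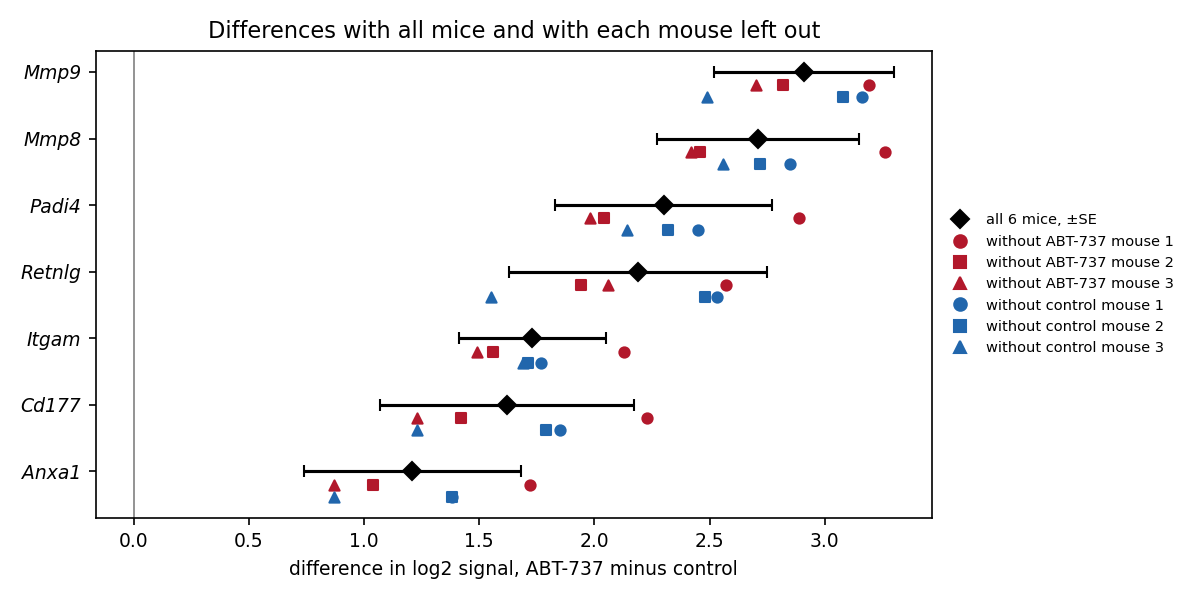
Difference in log2 signal, ABT-737 minus control (horizontal axis), for each gene: black diamonds with bars show all 6 mice ± SE, and coloured markers below them show the difference with 1 mouse left out (red for an ABT-737 mouse, blue for a control; control mice 1 and 2 coincide for Anxa1). All points lie right of 0, from 0.87 for Anxa1 to 3.26 for Mmp8.

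Relatives, partners and inhibitors of the 7 genes, and other genes of the neutrophil line, were examined in the same fit, to see which of them differed alongside. These lists were chosen with earlier results of these data known, so their counts here and below are a description with no weight as evidence. None of the 98 measured companion genes passed an adjusted p of 0.05 by limma, the smallest adjusted p being 0.155. At an unadjusted p under 0.05, 29 of the 98 were higher and 1 was lower, against 5.75% higher and 4.45% lower of all genes. Without ABT-737 mouse 1, 27 of the 98 passed the adjusted threshold, against 3.43% of all genes, and 46 were higher at the unadjusted one, against 10.3%. These shares of all genes also stand beside the counts of each list below. Of those 46, the list of gelatinase granules and late maturation held 16, the specific granule list 12 and the annexin list 7. The metalloproteinase list held 4, the integrin list 3, the transcription factor list 3 and the resistin list 1.

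Among 21 other metalloproteinases and inhibitors the median difference was 0.08, 0 when each array was centred on its median, and 0.03 to 0.17 with a mouse left out. Many were dim, and 11 remained without the dimmest 30% of genes, with a median of 0.14. Of the 21, 2 were higher at an unadjusted p under 0.05 by limma, Timp2 and Mmp16. Timp2, an inhibitor of metalloproteinases, had signals of 9.25, 10.27 and 9.95 in ABT-737 mice, against 8.80, 8.31 and 8.88 in controls, with a difference of 1.16 (SE 0.28; adjusted p = 0.312 by limma). Every ABT-737 mouse lay above every control. Timp1, the main inhibitor of MMP9, had signals of 4.96, 6.93 and 4.84 in ABT-737 mice, against 4.98, 5.02 and 4.79 in controls, and only ABT-737 mouse 2 stood outside the range of the others. Mmp16, a membrane-type metalloproteinase, differed by 0.67 (SE 0.20), and Reck, a membrane-anchored inhibitor, by 0.36 (SE 0.18), with adjusted p of 0.374 and 0.548 by limma.

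The 4 other peptidylarginine deiminases differed by -0.06 to 0.06, and none was counted at an unadjusted p under 0.05 by limma. Padi2, the most widely expressed of them, had signals of 8.11, 8.43 and 7.99 in ABT-737 mice, against 8.11, 8.11 and 8.23 in controls, and the groups overlapped. Padi1, Padi3 and Padi6 differed by -0.06 (SE 0.13), -0.06 (SE 0.13) and 0.06 (SE 0.10). Their control means were 5.78, 6.25 and 4.30, against array medians of 6.86 to 7.14. Without the dimmest 30% of genes, 2 of the 4 deiminases remained. Signal over background is unknown, so small differences of dim genes cannot be read as a lack of change.

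In the resistin family, Retn, the adipose hormone resistin, had signals of 6.68, 6.69 and 6.96 in ABT-737 mice, against 6.39, 6.49 and 6.34 in controls. The groups did not overlap, and the difference of 0.37 (SE 0.12; adjusted p = 0.404 by limma) was no longer counted at an unadjusted p under 0.05 under quantile normalization or centring, or without control mouse 1 or 3. Retnlb, with a control mean of 4.02, differed by 0.18 (SE 0.14). Of the 3 genes, 1 remained without the dimmest 30% of genes, Retn. Retnla, a peptide of alternatively activated macrophages in mice, had signals of 3.60, 7.82 and 3.76 in ABT-737 mice, against 4.36, 4.12 and 4.25 in controls. Its mean difference of 0.82 (SE 1.03) came from ABT-737 mouse 2 alone, and the other 2 treated mice lay below all controls.

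Of 13 other annexins and S100 partners of annexins, 3 were higher at an unadjusted p under 0.05 by limma. S100a6, a calcium-binding partner of annexins, had signals of 10.89, 12.10 and 12.31 in ABT-737 mice, against 10.10, 9.80 and 9.45 in controls. The groups stood 0.79 apart, and the difference was 1.98 (SE 0.37; adjusted p = 0.242 by limma). Anxa11 differed by 0.78 (SE 0.20) and Anxa2 by 0.99 (SE 0.38), with ABT-737 mouse 1, at 9.70, between the controls for Anxa2. S100a10, which binds annexin A2, went the other way, at 12.17, 12.52 and 12.33 in ABT-737 mice, against 12.68, 12.56 and 12.65 in controls. Fpr1 and Fpr2, which encode receptors for annexin A1, had no entry with a single symbol and so could not be analysed.

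Of 12 integrins, adaptors and ligands, 1 was higher at an unadjusted p under 0.05 by limma, Itgb2, the beta chain that pairs with CD11b. Itgb2 had signals of 11.77, 12.64 and 12.62 in ABT-737 mice, against 11.48, 11.34 and 11.62 in controls. Every ABT-737 mouse exceeded every control, by as little as 0.15, and the difference was 0.86 (SE 0.24; adjusted p = 0.345 by limma). Itgal, the alpha chain that pairs with the same beta chain in the lymphocyte integrin LFA-1, had overlapping groups, with 11.32, 11.85 and 11.47 in ABT-737 mice, against 11.31, 11.07 and 11.44 in controls. Selplg, the selectin ligand PSGL-1, differed by 0.31 (SE 0.15) and Tln1, the integrin activator talin, by 0.31 (SE 0.16). Pecam1, which CD177 binds in humans, differed by -0.03 (SE 0.21).

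**Figure D3:**
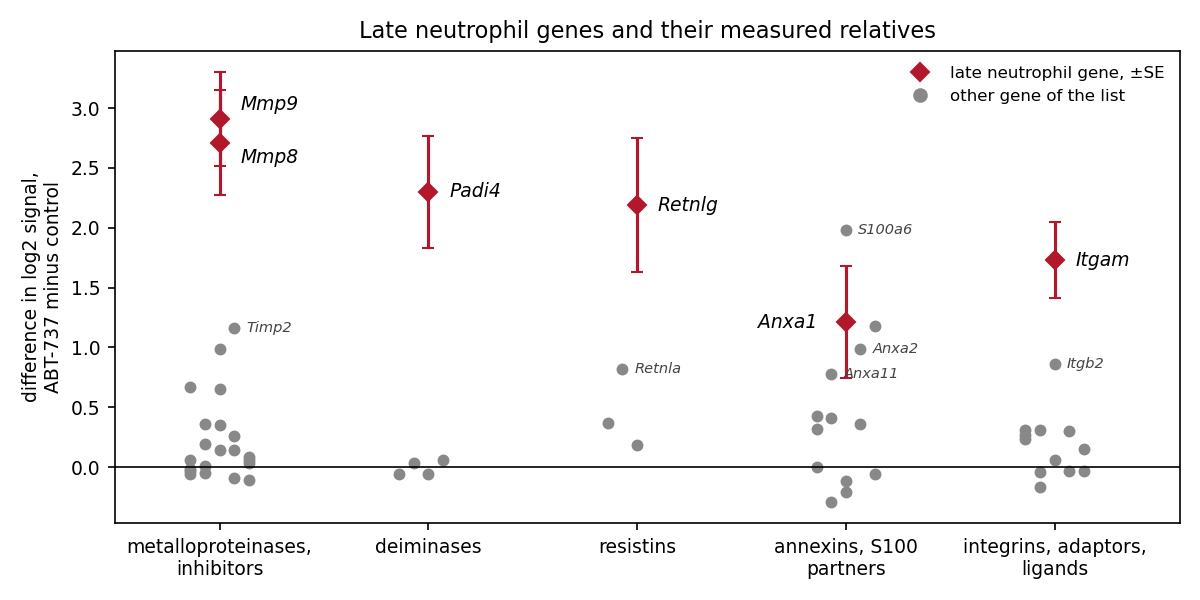
Difference in log2 signal, ABT-737 minus control (vertical axis), of 6 of the 7 genes (red diamonds ± SE) beside the other measured genes of each family list (grey points, spread sideways for legibility only). The grey points of the deiminases lie between -0.06 and 0.06, while Padi4 stands at 2.30. Many grey points are of dim genes, and 2 of the 4 deiminases remained without the dimmest 30% of genes. Cd177 had no family list.

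Other neutrophil genes were grouped by the stage at which they are made. Of 18 other genes of gelatinase granules and late maturation, 17 had higher means in ABT-737 mice, with a median difference of 1.47. At an unadjusted p under 0.05 by limma, 15 were higher and 0 lower, against 5.75% and 4.45% of all genes. The higher count was 12 without ABT-737 mouse 2, 11 without ABT-737 mouse 3, where 1 was lower, and 13 without control mouse 3. Without ABT-737 mouse 1 it was 16, with 13 past the adjusted threshold. Cxcr2, the chemokine receptor of mature neutrophils, had signals of 11.07, 11.99 and 12.12 in ABT-737 mice, against 9.20, 8.97 and 8.21 in controls. Csf3r, which encodes the G-CSF receptor, had signals of 11.08, 11.85 and 10.97 in ABT-737 mice, against 9.42, 9.41 and 9.59 in controls. Both separated the groups, ABT-737 mouse 1 included. Grina differed by 1.12 (SE 0.17). Alpl, alkaline phosphatase of secretory vesicles in human neutrophils, was the 1 gene with a lower mean, chosen after its values were seen, at -0.25 (SE 0.26).

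The 12 genes of the specific granule list, which also holds S100a8 and S100a9 of the cytosolic protein calprotectin, all had higher means. Their median difference was 0.73. At an unadjusted p under 0.05 by limma, 7 were higher, S100a8 and S100a9 among them, and 0 lower, against 5.75% and 4.45% of all genes. That count was 3 without ABT-737 mouse 2, 2 without ABT-737 mouse 3, 3 without control mouse 3 and 12 without ABT-737 mouse 1. Ltf, lactoferrin, had signals of 12.26, 13.50 and 13.62 in ABT-737 mice, against 12.08, 11.88 and 11.15 in controls. The groups did not overlap, with ABT-737 mouse 1 next to the highest control. Tcn2, a vitamin B12 carrier, differed by 0.69 (SE 0.21) and Pglyrp1, a peptidoglycan-binding protein, by 1.13 (SE 0.35).

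The 6 azurophil granule genes all had lower means in ABT-737 mice, with a median of -0.48, and none was counted at an unadjusted p under 0.05 by limma. Mpo, myeloperoxidase, had signals of 11.74, 11.92 and 12.85 in ABT-737 mice, against 12.93, 12.86 and 12.26 in controls. Elane, neutrophil elastase, had signals of 12.22, 12.32 and 13.23 in ABT-737 mice, against 13.23, 13.16 and 12.33 in controls. Both overlapped between the groups, with ABT-737 mouse 3 beside control mice 1 and 2. Prtn3 differed by -0.55 (SE 0.29) and Ctsg by -0.73 (SE 0.49). With array weights the azurophil median was -0.29. It was -0.22 without ABT-737 mouse 1, -0.31 and -0.32 without control mouse 1 and 2, -0.80 without ABT-737 mouse 3 and -0.78 without control mouse 3, with 2 genes lower at an unadjusted p under 0.05 in each of the last 2 cases. Without ABT-737 mouse 1 or control mouse 3, 5 of the 6 means were lower and 1 was higher.

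The 4 classes are set side by side in each mouse as mean signals relative to the control mean, although the 7 genes were chosen for this contrast and include Mmp8 of the specific granules. In ABT-737 mouse 1 the 7 genes stood at 1.15, the other late genes at 0.80, specific granule genes at 0.08 and azurophil genes at -0.95. In ABT-737 mouse 2 the same values were 2.49, 1.65, 1.08 and -0.58, and in ABT-737 mouse 3 they were 2.65, 1.90, 1.16 and 0.20. Controls stayed within 0.38 and -0.61 for all 4 classes, and control mouse 3 was the lowest control in each. The order of the classes was the same in the 3 treated mice, although the azurophil genes lay below the control mean in only 2 of them. Whether the difference of the 7 genes exceeds that of the other classes was not tested, because the 7 were chosen for it.

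**Figure D4:**
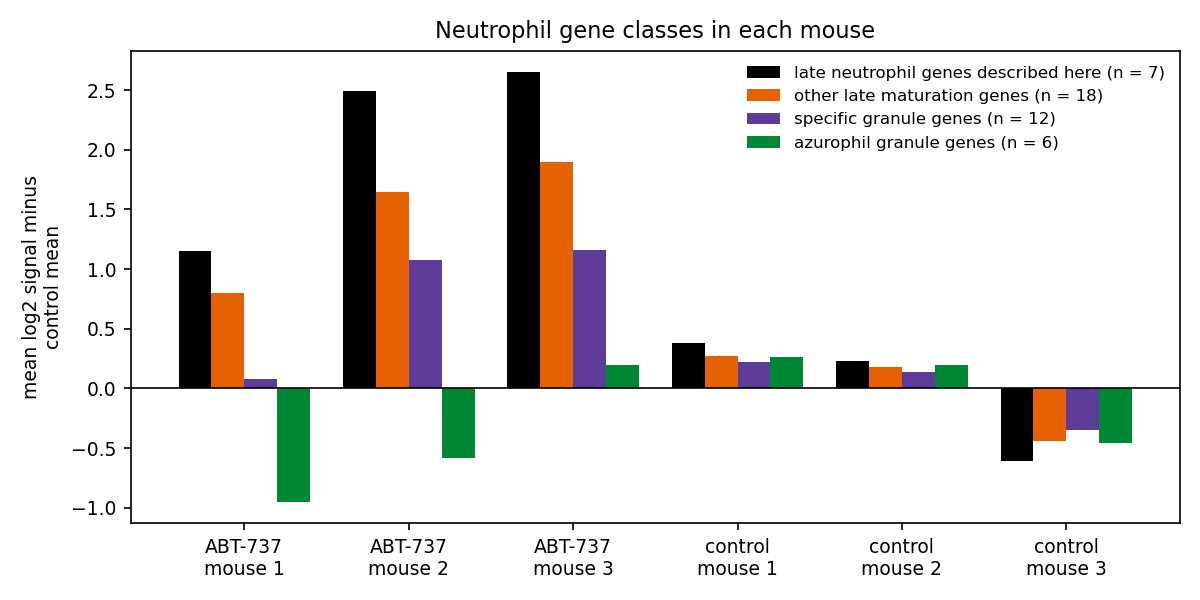
Mean log2 signal of 4 classes of neutrophil genes minus the mean of the controls (vertical axis), as bars for each ABT-737 mouse (left) and each control mouse (right), with the number of genes in the legend. The late neutrophil genes described here (black) reach 1.15, 2.49 and 2.65 in the ABT-737 mice, and the azurophil bars are -0.95, -0.58 and 0.20.

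Of 9 transcription factors of the granulocyte line, 0 were higher and 1 was lower at an unadjusted p under 0.05 by limma, with 0 past the adjusted threshold and a median difference of 0.24. Without ABT-737 mouse 1, 3 were higher and 1 passed the adjusted threshold. Spi1, which encodes PU.1, had signals of 11.74, 12.62 and 12.51 in ABT-737 mice, against 11.85, 11.83 and 11.73 in controls. Cebpe, which drives the myelocyte stage and specific granules, had signals of 7.94, 9.81 and 9.85 in ABT-737 mice, against 8.86, 8.88 and 7.84 in controls. For both, ABT-737 mice 2 and 3 lay above all controls and ABT-737 mouse 1 did not. Gfi1, a repressor needed for neutrophil formation, differed by -0.10 (SE 0.17) and Cebpb, a factor of emergency granulopoiesis, by 0.42 (SE 0.21). The lower gene was Irf8, which steers progenitors to monocytes, at 10.99, 11.22 and 10.17 in ABT-737 mice, against 11.45, 11.38 and 11.76 in controls. Every ABT-737 mouse lay below every control for Irf8, as for 1068 of all 14860 genes. The difference was -0.74 (SE 0.27; adjusted p = 0.434 by limma), no longer counted at the unadjusted threshold without control mouse 1 or 3.

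Genes whose pattern over the 6 mice was most like the mean of the 7 were sought among 11145 genes at or above the 25th percentile of mean signal, by Pearson correlation as a description. The 10 most alike were Raet1e, Alox5, Dhrs9, Trib1, Adam8, Slfn4, Syne1, Ankrd22, Actn1 and S100a6, with correlations of 0.993 to 1.0. Alox5, the lipoxygenase that starts leukotriene synthesis, had signals of 10.40, 11.82 and 12.12 in ABT-737 mice, against 9.68, 9.44 and 8.46 in controls. Adam8, a membrane metalloproteinase of leukocytes, had signals of 9.75, 10.87 and 10.96 in ABT-737 mice, against 9.33, 8.91 and 8.45 in controls. Both had control mouse 3 lowest and ABT-737 mice 2 and 3 highest, as the 7 genes did. They were picked by correlation with the 7, so this shared order is no separate result.

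Each gene also had its own nearest neighbours. Mmp9 was most like Cxcr2 (0.996) and Il1f9, an interleukin-1 family cytokine (0.994), and Mmp8 was most like Sema4a (0.999) and Gpat3 (0.998). Padi4 was nearest to Agap1 (0.998) and S100a6 (0.997), and Itgam to Pdlim7 (0.998) and Sema4a (0.996). For Retnlg the nearest were Lcn2 and Trem1, both at 0.991, a specific granule protein and an activating receptor of myeloid cells. S100a9, the calprotectin subunit, was among the nearest 2 for both Cd177 (1.0) and Anxa1 (0.998), the pair whose groups overlapped, with Pram1 (0.996) and Tbc1d2 (0.998) beside it. These correlations rest on 6 arrays that fall into 2 groups.

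Anxa1 and Itgam are also expressed by monocytes, macrophages and eosinophils, so markers of those cells are given beside them. Of all genes, 5.75% were higher and 4.45% lower at an unadjusted p under 0.05 by limma. Without ABT-737 mouse 1, 10.3% were higher, 666 of 14860 were lower and 3.43% passed the adjusted threshold. Of 14 monocyte and macrophage markers, 2 were higher at an unadjusted p under 0.05 by limma, Cd68 and Cd14, and the mean signal of the list was 9.33 to 10.10 in ABT-737 mice, against 9.10 to 9.74 in controls. Control mouse 3, lowest for all 7 genes, was the highest control for that list. Without it 6 of the 14 were higher, against 665 of all 14860 genes. Without ABT-737 mouse 1, 4 were higher, 2 of them past the adjusted threshold. Of 5 eosinophil markers, 2 were higher, Siglecf and Ccr3, with list means of 8.28 to 9.52 in ABT-737 mice, against 8.01 to 8.25 in controls, and 4 were higher without ABT-737 mouse 1. Of 8 B cell markers, 2 were lower, Ms4a1 and Blk, with list means of 10.75 to 11.87 in ABT-737 mice, against 11.58 to 12.08 in controls. ABT-737 mouse 1, the treated mouse with the lowest signals of the 7 genes, had the B cell mean of 11.87. Without it 6 of the 8 were lower, 5 of them past the adjusted threshold, and with any other mouse left out 1 was lower.

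The remaining marker lists are given by their means, and the shares of all genes above also stand beside their counts. With a mouse left out, 326 to 836 of all 14860 genes were lower and 456 to 1525 higher at the unadjusted threshold. For T cell markers, with 0 of 8 counted, the means were 10.71 to 11.05 in ABT-737 mice, against 10.76 to 11.08 in controls. Erythroid markers, with 0 of 6 counted, had means of 6.68 to 9.04 in ABT-737 mice, against 7.18 to 7.48 in controls, with ABT-737 mouse 1 the lowest of the 6. Without that mouse all 6 were higher at an unadjusted p under 0.05 by limma, 3 passed the adjusted threshold, and the median difference was 1.44, against 0.73 with all mice. Megakaryocyte markers, with 0 of 4 counted, had means of 7.35 to 8.03 in ABT-737 mice, against 7.05 to 7.66 in controls, and 2 were higher without ABT-737 mouse 1. Stem and progenitor markers, with 3 of 9 lower (Cd34, Flt3 and Mecom), had means of 7.36 to 7.70 in ABT-737 mice, against 7.48 to 7.99 in controls. Their lower count was 0 without control mouse 1 or 3, 1 without ABT-737 mouse 1 or 3, and 5 without control mouse 2. NK cell markers, with 2 of 4 lower, had means of 7.52 to 8.38 in ABT-737 mice, against 8.13 to 8.59 in controls, and mast cell and basophil markers, with 1 of 5 lower, 6.01 to 6.46 in ABT-737 mice, against 6.31 to 6.91 in controls. With a mouse left out, the lower NK cell count ran from 0 (without ABT-737 mouse 3 or control mouse 1) to 3, and that of mast cells and basophils from 0 (without control mouse 1 or 2) to 2. The 9 neutrophil markers are no separate set, since all are also in the late, specific or azurophil granule lists above. Of them 6 were higher, with list means of 11.90 to 12.86 in ABT-737 mice, against 11.04 to 11.73 in controls. Only 3 were higher without ABT-737 mouse 2, ABT-737 mouse 3 or control mouse 3. Without ABT-737 mouse 1, 7 were higher and 5 passed the adjusted threshold. No marker is at 0 on this log2 scale, and the part of cell composition in the signals of the 7 genes was not tested.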

How the data were processed

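RNA was fragmented, biotinylated and measured on Affymetrix exon arrays (source: the labels' protocols). What the authors deposited are log2 signals, from 2.6 to 14.3, a scale read from the values. Build mm9 is named in the submitters' processing notes. How the authors normalized, summarised or filtered the signals is not given in the sources used here. No scanner files were used, so signal over background is unknown. Of 23332 entries, 14996 had 1 gene symbol, 1019 several and 7317 none. Symbols were matched by Entrez number (14941 matched, 0 changed), and the entry with the highest mean was kept for the 135 genes with several, leaving 14860.

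Groups came from the treatment labels, and mice are numbered in accession order. Differences were fitted with limma 3.58.1 in R 4.3.3 (lmFit and eBayes, two-sided, Benjamini-Hochberg over all genes, threshold 0.05), and the fit was tested on simulated data. Mice are separate animals. The 7 genes, the gene lists and the naming rule were chosen with earlier results of these data known. The rule named the 7 genes, the 3 smallest p in each companion list, fixed partners, and the most alike genes by correlation. Other genes are examples picked with their values in view. The fit was repeated with quantile normalization, with arrays centred on their medians, without the dimmest 30% of genes, with trended or robust variance, with array weights, with entries averaged per gene, and without each mouse. Figures were drawn with matplotlib 3.10.9. Promoters came from RefSeq, GRCm38.p6, and no other coordinates were used because the builds differ.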

Additional observations from a re-analysis of the deposited data

How the results depend on the processing

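All 91 differences of the 7 genes under the alternatives were positive. Of them, 0 moved by more than 1 SD between mice. For the fits with a mouse left out this carries no weight, because leaving out 1 of 3 mice cannot do so. Settings that change only the variance, the genes tested or the averaging of entries left the differences as they were. The median of the 7 differences stayed between 2.10 and 2.45 under other settings and between 1.69 and 2.57 with a mouse left out. Genes past the adjusted threshold, 0 in the reported fit beside 854 higher and 662 lower at an unadjusted p under 0.05, numbered 14 without the dimmest 30% of genes, 2 with array weights and 0 to 510 with a mouse left out (510 without ABT-737 mouse 1, 1 without ABT-737 mouse 3). Of the 7 genes, 1 passed it without the dimmest 30% of genes and 6 without ABT-737 mouse 1. Companion genes past it were 2 without the dimmest 30% of genes and 0 to 27 with a mouse left out. Genes lower at the unadjusted threshold numbered 1407 under quantile normalization and 1314 under centring. The higher share of calls was 34.4% and 32.0% there, against 56.3% as reported. Centring moved the median of all genes from -0.02 to -0.11. Control mouse 2 had the lowest array median, 6.86, against 7.07 to 7.14 in the others. Without control mouse 2 the higher share was 35.3%. With a mouse left out, higher genes ran from 456 to 1525 and lower ones from 326 to 836. Lower B cell markers, 2 as reported, numbered 6 under centring and with array weights. Among companion genes, higher ones ran from 20 to 46 and lower ones from 0 to 4, and lower ones were 3 under quantile normalization and 2 under centring, under the variance trend and with array weights. The cause was not tested, except that the filter tests fewer genes. No paired analysis was possible because the labels give no shared replicate numbers. Signal over background, which would limit the dim genes, was not analysed here.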

Other observations

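A few genes, chosen here after their values were seen, had their highest signal in ABT-737 mouse 2. Mmp12, the macrophage elastase, had signals of 4.50, 8.07 and 4.83 in ABT-737 mice, against 4.69, 4.82 and 4.92 in controls. Mmp13, a collagenase, had signals of 5.27, 6.61 and 5.38 in ABT-737 mice, against 5.27, 5.49 and 5.72 in controls. In both genes ABT-737 mice 1 and 3 lay at or near the controls, as they did for Timp1. Epx, eosinophil peroxidase, had signals of 7.63, 10.92 and 9.21 in ABT-737 mice, against 8.70, 9.03 and 8.11 in controls, and Prg2, the eosinophil major basic protein, 9.03, 11.72 and 10.50 in ABT-737 mice, against 9.59, 10.14 and 9.34 in controls. For these eosinophil granule genes ABT-737 mouse 2 was the highest and ABT-737 mouse 1 the lowest of the 6 mice. Of the 7 late neutrophil genes, Retnlg was also highest in ABT-737 mouse 2, and the others were highest in ABT-737 mouse 3. None of Mmp12, Mmp13, Epx and Prg2 was counted at an unadjusted p under 0.05 by limma.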
